A study of Oryza sativa Indica Group with 6 samples.

Results

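Genes for carriers of phosphate, nitrogen and metals were followed through the development of rice pollen. The set was chosen by name alone: a gene belonged to it where its symbol or a synonym in the RefSeq gene table was PHT, YSL, AMT, NRT, ZIP, IRT, NRAMP, HMA or MTP followed by a digit, with or without the prefix Os, and names of the form BZIP were left out. The rule matched 79 genes, of which 60 had a probe set assigned to that gene alone, out of 17905 such genes on the array. By family, 9 of 19 matched PHT genes were measured, 15 of 18 YSL, 8 of 9 AMT, 2 of 3 NRT, 10 of 12 ZIP and IRT, all 6 NRAMP, 3 of 4 HMA and 5 of 6 MTP genes. The other 2 measured genes, OsPHT1 and OsPHT3, carry the letters but no transporter number, and OsPHT1 is also named HCT3. The letters PHT are in use for putrescine hydroxycinnamoyltransferases too, so these 2 genes are counted with the set and described apart from the phosphate transporters. Nothing about expression entered the rule itself, but the set was chosen with earlier results of these data known. The 19 matched genes without a probe set, among them the 7 PHT4 genes, PHT1-5, PHT1-10, PHT1-13, YSL2, YSL3, YSL17, AMT1-3, NRT2.1, ZIP9, ZIP10, HMA9 and MTP8, were not analysed here.

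The samples were male gametophytes of field-grown Guichao No.2, a variety of Oryza sativa Indica Group, at 3 stages, with 2 biological replicates per stage and an Affymetrix array for each. Uninucleate microspores (UNM) are the young haploid cells before their asymmetric division, bicellular pollen (BCP) has a generative cell inside the vegetative cell, and tricellular pollen (TCP) has sperm cells. All samples were of 1 variety and carried no named allele or treatment, and how the cells were separated from the anther is not given in the sources used here. Values are log2 signals per probe set, the group of probes that detects 1 transcript, and a difference of 1 is a factor of 2. A gene rose or fell between stages where limma's Benjamini-Hochberg adjusted p, over the 57194 tested probe sets, was under 0.05 and the stages differed by 1 or more. A gene changed across the stages where limma's moderated F test passed the same threshold and its stage means spanned at least 1. A signal was taken as above background on an array where it exceeded the 95th percentile of 64 reporter probe sets, which detect transcripts foreign to rice, on that array. This level was 5.22 and 5.00 in UNM, 5.60 and 5.70 in BCP, and 5.72 and 5.84 in TCP. The same signal can therefore be above background in UNM and not later. Signals of different probe sets were not compared with each other, and with 2 arrays per stage the number of arrays limits the precision.

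Phosphate, nitrogen and metal ions cannot cross membranes unaided, and each family here carries a different group of them. PHT1 proteins are proton-coupled phosphate importers, AMT proteins take up ammonium, and NRT2 proteins are high-affinity nitrate carriers that work with a small NAR2 partner. ZIP and IRT proteins bring zinc and iron into the cytosol, NRAMP proteins carry divalent metals with protons, and YSL proteins carry metals bound to nicotianamine or to the mugineic acids made from it. HMA proteins are ATP-driven pumps that export metals from the cytosol, and MTP proteins are cation diffusion facilitators that move zinc or manganese out of the cytosol, often into the vacuole. Pollen receives its nutrients from the surrounding tapetum until that tissue degenerates, and it carries a store of minerals that the growing pollen tube uses.

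Across the stages 31 of the 60 genes (51.7%) changed, against 63.4% of all 17905 genes. In BCP relative to UNM 10 genes rose (16.7%, against 17.1% of all genes) and 9 fell (15.0%, against 25.1%). In TCP relative to BCP 9 rose (15.0%, against 8.52% of all genes) and 8 fell (13.3%, against 28.6%). In TCP relative to UNM 12 rose and 12 fell (20.0% each, against 14.4% and 37.7% of all genes). The median difference of the 60 genes was -0.08 in BCP minus UNM, 0.04 in TCP minus BCP and 0.02 in TCP minus UNM, beside -0.12, -0.06 and -0.34 over all genes. Of the 60 genes 26 were above background on both arrays of UNM, 22 on both of BCP and 21 on both of TCP, which is 43.3%, 36.7% and 35.0% of them, beside 68.6%, 55.2% and 44.6% of all genes. Only 12 were above background on all 6 arrays, and 20 on none.

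Among the 15 YSL genes 10 changed (66.7%, near the 63.4% of all genes). In BCP relative to UNM 6 of the 15 rose and 2 fell, beside 17.1% and 25.1% of all genes. In TCP relative to BCP 3 of the 15 rose and 5 fell, beside 8.52% and 28.6% of all genes. Among the 9 PHT genes 5 changed (55.6%), and in TCP relative to UNM 1 rose and 4 fell (11.1% and 44.4%, against 14.4% and 37.7% of all genes). Of 8 AMT genes 3 changed, of 2 NRT genes 1 and of 10 ZIP and IRT genes 4, beside 63.4% of all genes. Of 6 NRAMP genes 4 changed, of 3 HMA genes 1 and of 5 MTP genes 3, beside the same share. Neither OsPHT1 nor OsPHT3 changed. Of all 60 genes YSL7 alone rose and YSL6 alone fell both in BCP relative to UNM and in TCP relative to BCP. Where the arrays were instead scaled by the mean of their hybridization controls (control-based scaling), most rises in TCP were no longer called. The share of all genes called under that scaling was not counted, so counts under it stand without such a share.

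**Figure D1:**
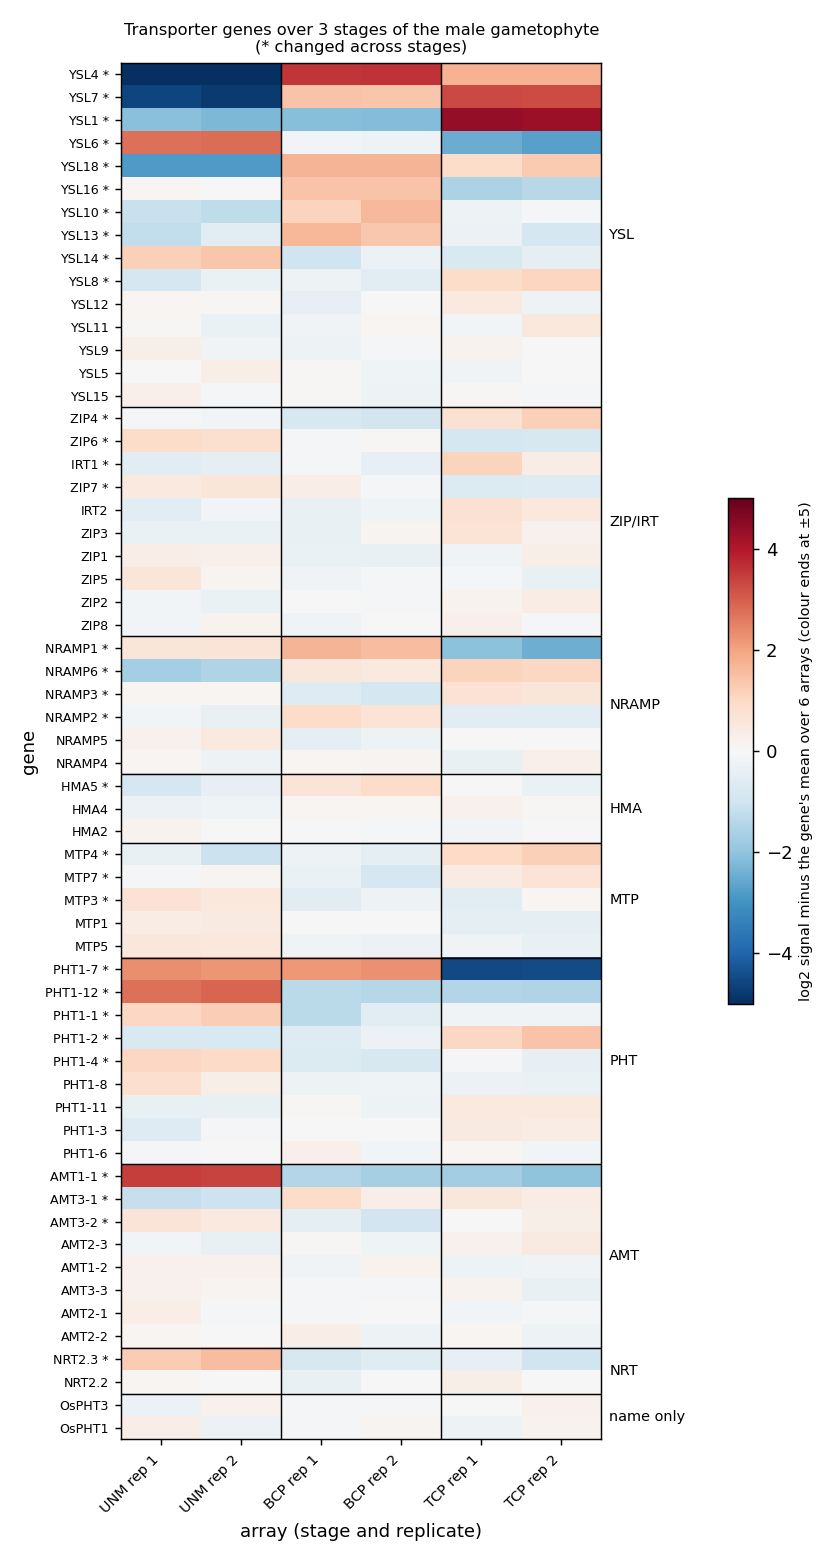
Signal of each of the 60 genes on the 6 arrays, as the log2 signal minus that gene's own mean over the arrays, with red above and blue below it; rows are genes grouped by family, columns are arrays by stage, and an asterisk marks the 31 genes that changed. The strongest colours lie in YSL4, YSL7 and YSL1 and in PHT1-7, PHT1-12 and AMT1-1, and both arrays of a stage look alike in these rows.

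What the samples held was checked against marker genes. The 4 late pollen markers measured (ADF9, EXPB10, EXPB9 and GBSS-I) had summed linear signals of 67.8 and 51.6 in UNM, with none above background, 19150 and 19700 in BCP, and 21190 and 19870 in TCP. The sum of tapetum and anther wall markers went the other way: over 12 genes the linear signal was 6577 and 6774 in UNM, 561 and 541 in BCP, and 411 and 359 in TCP. Of these 12, 10 were above background on each UNM array, 1 or 2 on the BCP arrays and 1 or 2 on the TCP arrays, and 8 fell in BCP relative to UNM. CAB2R, a chlorophyll-binding protein of green tissue, had signals of 11.29 and 11.41 in UNM, 4.59 and 4.52 in BCP, and 3.87 and 4.01 in TCP. RBCS, a subunit of the carbon-fixing enzyme and the other measured gene of green tissue, had 8.22 and 8.49 in UNM, 8.47 and 8.86 in BCP, and 9.40 and 9.32 in TCP, and was called higher in TCP than in UNM. The 4 measured markers of meiocytes (DMC1B, MEL1, PAIR1 and PAIR2) summed to 235 and 260 in UNM, 210.0 and 209.7 in BCP, and 174 and 181 in TCP. They did not move together: DMC1B rose by 1.66 in BCP and by 1.17 in TCP, both relative to UNM, and PAIR2 fell by 1.30 in TCP relative to UNM. MEL1 was not called and PAIR1 was above background on no array. No measured gene marked the generative or sperm cells. Signal from the 3′ end of actin exceeded that from its middle by 3.06 and 3.15 in UNM, 1.93 and 1.81 in BCP, and 1.90 and 1.91 in TCP, on the log2 scale. The same difference for GAPDH was 1.29 and 0.71 in UNM, 1.10 and 0.91 in BCP, and 1.60 and 1.51 in TCP, highest in TCP where that of actin was highest in UNM. Fewer cells of a type and less RNA per cell cannot be told apart in such pooled samples.

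The YSL family held the widest changes of the set, and its members followed different courses. YSL4 (gene 4338224) had log2 signals of 2.97 and 2.95 in UNM, 11.89 and 11.90 in BCP, and 10.04 and 10.04 in TCP. It was below background in UNM and rose in BCP, at least 110.3-fold higher than in UNM, with a log2 difference of 8.94 (SE 0.12, adjusted p = 1.29e-07). "At least" is measured against the background level wherever a stage had no array above it. YSL4 then fell by 1.86 (SE 0.12, adjusted p = 1.8e-05) in TCP relative to BCP, and both TCP arrays remained above every UNM array. YSL3, its immediate neighbour in the gene table, has no probe set of its own.

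YSL7 (gene 4328077) rose at both steps. Its signals were 5.07 and 4.88 in UNM, 11.12 and 11.07 in BCP, and 12.99 and 12.92 in TCP. The difference was 6.12 (SE 0.13, adjusted p = 2.04e-07) in BCP minus UNM, at least 63.3-fold, and 1.86 (SE 0.13, adjusted p = 3.08e-05) in TCP minus BCP. TCP was at least 229.6-fold above UNM, where no array was above background. No function is stated here for YSL4 or YSL7.

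YSL18 encodes a carrier of iron bound to deoxymugineic acid that is known from rice reproductive organs and phloem. Its signals (gene 4327424) were 4.38 and 4.36 in UNM, 8.90 and 8.93 in BCP, and 8.14 and 8.53 in TCP. Both later stages stood clear of UNM, with differences of 4.55 (SE 0.16, adjusted p = 1.18e-06) in BCP minus UNM, at least 13.9-fold higher, and 3.97 (SE 0.16, adjusted p = 8.94e-07) in TCP minus UNM. TCP differed from BCP by -0.58 (SE 0.16, adjusted p = 0.0251), which passed the p threshold but not the minimum difference.

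YSL1 (gene 4326360) was at background until the last stage. Its signals were 3.54 and 3.40 in UNM, 3.53 and 3.47 in BCP, and 10.03 and 9.91 in TCP, so that only the TCP arrays were above background. TCP was at least 19.9-fold higher than BCP, with a difference of 6.47 (SE 0.13, adjusted p = 4.5e-07), and BCP minus UNM was 0.03 (SE 0.13). YSL8, also highest in TCP, was above background on all 6 arrays with 7.01 and 7.51 in UNM, 7.60 and 7.34 in BCP, and 8.77 and 8.94 in TCP, and rose by 1.38 (SE 0.20, adjusted p = 0.00134) relative to BCP.

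Only YSL6 fell at both steps. The protein carries manganese bound to nicotianamine. YSL6 (gene 4335676) had signals of 10.59 and 10.62 in UNM, 7.68 and 7.58 in BCP, and 5.36 and 5.11 in TCP, with no overlap between any 2 stages. The difference was -2.97 (SE 0.14, adjusted p = 3.99e-06) in BCP minus UNM and -2.39 (SE 0.14, adjusted p = 1.16e-05) in TCP minus BCP, and the TCP signal, not above background, was at least 28.3-fold lower than that of UNM. YSL14 also had its highest signals in UNM, at 5.98 and 6.17, and was not above background later, with -1.94 (SE 0.24, adjusted p = 0.000524) in BCP minus UNM, at least 1.34-fold lower. Both moved in the same direction as the tapetum and anther wall markers over this step, and the part of such tissue in their signals was not tested.

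YSL16, YSL13 and YSL10 had their highest signals in BCP. YSL16, a carrier of copper bound to nicotianamine in the phloem, had signals of 4.77 and 4.69 in UNM, 6.10 and 6.10 in BCP, and 3.09 and 3.30 in TCP. It rose by 1.37 (SE 0.13) in BCP relative to UNM, at least 1.98-fold higher. It then fell by 2.91 (SE 0.13) in TCP relative to BCP, at least 1.25-fold lower. YSL13 had 3.78 and 4.45 in UNM, 6.66 and 6.34 in BCP, and 4.71 and 4.12 in TCP. YSL10 had 3.15 and 3.01 in UNM, 5.37 and 5.90 in BCP, and 4.03 and 4.20 in TCP, so that a single BCP array was above background. In BCP minus UNM the difference was 2.39 (SE 0.28) for YSL13, at least 2.61-fold higher, and 2.56 (SE 0.19) for YSL10, at least 1.44-fold higher. In TCP minus BCP it was -2.08 for YSL13, at least 1.64-fold lower, and -1.52 for YSL10, for which no fold is given. Both falls passed the test. For YSL10 and YSL16 neither TCP nor UNM had an array above background, so their calls between those stages, a rise of YSL10 and a fall of YSL16, compare signals at background. The rise of YSL10 in TCP relative to UNM, at 1.04, was 0.95 without TCP replicate 2 and 0.97 without UNM replicate 2, under the minimum difference.

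The other 5 YSL genes did not change. YSL5 was above background on all 6 arrays, at stage means of 6.58, 6.36 and 6.35 in UNM, BCP and TCP. YSL15, which takes up iron bound to deoxymugineic acid in roots, was above background on none, with means of 4.93, 4.72 and 4.81, and nor were YSL11 and YSL12. YSL9 had means of 5.25, 5.02 and 5.27, and was above background only in UNM, where the background level was lowest. With control-based scaling, again 6 YSL genes rose and 2 fell in BCP relative to UNM, while in TCP relative to BCP only YSL1 rose and 9 fell.

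**Figure D2:**
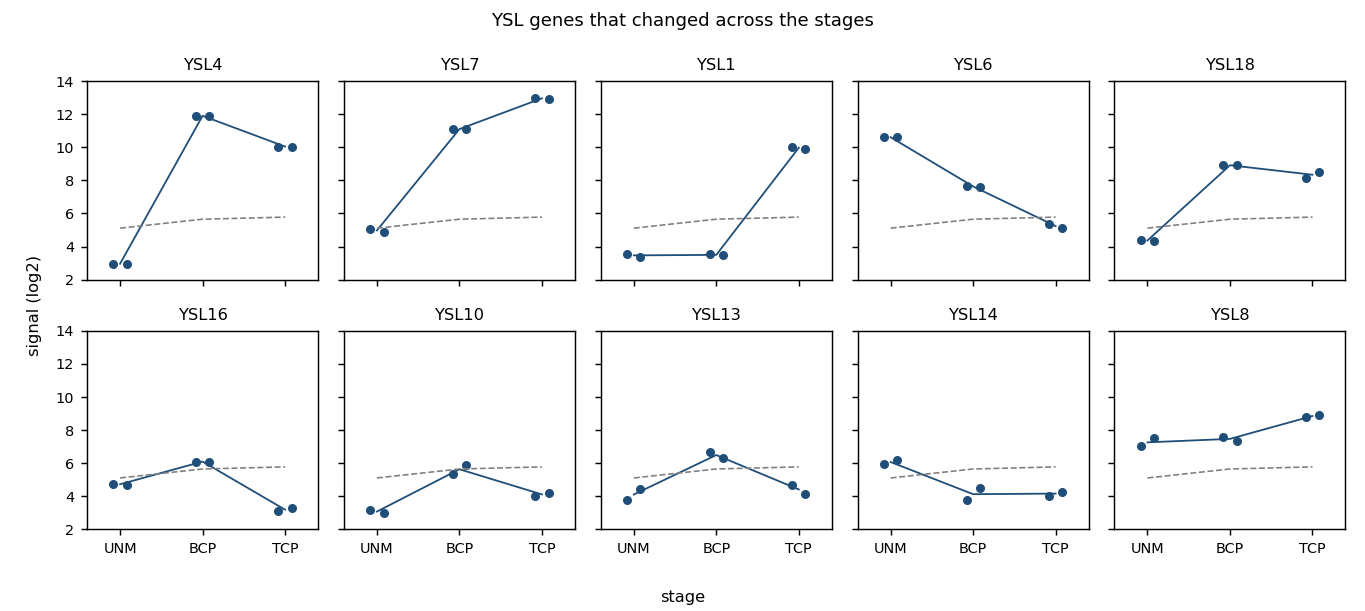
Log2 signal of the 10 YSL genes that changed, at UNM, BCP and TCP; each point is an array (2 per stage), the line joins stage means, and the dashed grey line is the background level of the stage. YSL4, YSL7 and YSL18 leave the background between UNM and BCP, YSL1 between BCP and TCP, and YSL6 goes down to it.

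The NRAMP family was the one with every member above background on both arrays of UNM. Of its 6 genes 4 changed (66.7%, near the 63.4% of all genes). NRAMP1, a carrier of iron and cadmium, had signals (gene 4342862) of 10.08 and 10.12 in UNM, 11.18 and 11.00 in BCP, and 7.41 and 7.04 in TCP. TCP lay below both earlier stages, with a TCP minus BCP difference of -3.86 (SE 0.16, adjusted p = 2.86e-06), 14.5-fold lower, and a TCP minus UNM difference of -2.87 (SE 0.16, adjusted p = 5.32e-06). Its BCP minus UNM difference of 0.989 fell just short of the minimum. NRAMP6 (gene 4352640), a member of the same metal carrier family, had 9.31 and 9.51 in UNM, 11.57 and 11.49 in BCP, and 12.10 and 12.05 in TCP. In TCP NRAMP6 was highest and NRAMP1 lowest. NRAMP6 rose by 2.12 (SE 0.13, adjusted p = 1.56e-05) in BCP relative to UNM (4.34-fold higher), and TCP minus UNM was 2.67 (SE 0.13, adjusted p = 2.63e-06). Its TCP minus BCP difference was 0.55, under the minimum, and -0.68 with control-based scaling.

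Smaller changes were seen in NRAMP3 and NRAMP2. NRAMP3, which distributes manganese in the nodes of rice, had 6.55 and 6.55 in UNM, 5.82 and 5.60 in BCP, and 7.20 and 7.07 in TCP (gene 9267339). It rose by 1.43 (SE 0.14, adjusted p = 0.000151) in TCP relative to BCP, where only 1 array was above background. NRAMP2, a vacuolar carrier, had 7.99 and 7.74 in UNM, 9.03 and 8.82 in BCP, and 7.59 and 7.58 in TCP (gene 4332012) and peaked in BCP, by 1.06 (SE 0.15, adjusted p = 0.00101) over UNM. It fell by 1.34 (SE 0.15, adjusted p = 0.000334) in TCP relative to BCP. NRAMP5, the root carrier for manganese and cadmium, and NRAMP4 did not change, with largest differences between stages of -0.69 and 0.21, both in BCP minus UNM. That of NRAMP5 passed the p threshold (adjusted p = 0.00904) but not the minimum difference. The NRAMP2 rise was 0.95 without BCP replicate 1 and 0.93 without UNM replicate 2, under the minimum, while that of NRAMP1 passed it at 1.08 without BCP replicate 2 and 1.01 without UNM replicate 2. The rise of NRAMP2 in BCP and that of NRAMP3 in TCP were not called with control-based scaling.

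Among the metal exporters the changes were small. HMA5, a copper pump that loads the xylem, had 5.32 and 5.73 in UNM, 6.79 and 7.08 in BCP, and 6.18 and 5.84 in TCP (gene 4336625), and rose by 1.41 (SE 0.20, adjusted p = 0.00116) in BCP relative to UNM. HMA4, a pump that stores copper in the vacuole, had 8.15 and 8.24 in UNM, 8.55 and 8.52 in BCP, and 8.65 and 8.50 in TCP and changed in no comparison, and the cadmium and zinc pump HMA2 was above background on no array. MTP1, which loads zinc into the vacuole, and MTP5 were above background on all arrays. MTP1 had 9.90 and 9.95 in UNM, 9.54 and 9.55 in BCP, and 9.07 and 9.07 in TCP, and its TCP minus UNM difference of -0.85 (SE 0.12, adjusted p = 0.000731) passed the p threshold but not the minimum difference.

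MTP4, MTP7 and MTP3 changed close to background. MTP4 had 5.09 and 4.37 in UNM, 5.19 and 4.97 in BCP, and 6.46 and 6.63 in TCP (gene 4332125), and rose in TCP by 1.47 (SE 0.24, adjusted p = 0.00255) relative to BCP, at least 1.86-fold higher. Another probe set of MTP4 gave -0.69 for the same difference, with no call. MTP7 had 4.96 and 5.13 in UNM, 4.66 and 4.17 in BCP, and 5.42 and 5.69 in TCP (gene 4325974), and its rise in TCP relative to BCP, 1.14, joined stages with no array above background. MTP3 had 5.46 and 5.27 in UNM, 4.21 and 4.48 in BCP, and 4.18 and 4.84 in TCP (gene 4330894), and fell by 1.02 (SE 0.23, adjusted p = 0.0117) in BCP relative to UNM, the only stage in which it was above background. Without BCP replicate 1 the MTP3 difference was -0.88, without UNM replicate 1 it was -0.92, and without BCP replicate 2 that of MTP7 was 0.90, all under the minimum. Leaving out BCP replicate 1 or TCP replicate 1 brought the fall of HMA5 in TCP relative to BCP past the minimum, at -1.08 and -1.10, against -0.93 with all arrays, and without TCP replicate 2 MTP3 was called lower in TCP than in UNM, at -1.18.

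Most ZIP and IRT genes were not detected: 7 of 10 were above background on no array. ZIP6 and ZIP7 were above it on all 6 and declined. ZIP6 had 9.01 and 8.90 in UNM, 8.03 and 8.18 in BCP, and 7.21 and 7.31 in TCP (gene 4337908), lower at each stage than at the one before, and TCP minus UNM was -1.70 (SE 0.13, adjusted p = 2.8e-05). ZIP7 had 7.39 and 7.51 in UNM, 7.24 and 6.85 in BCP, and 6.22 and 6.25 in TCP (gene 4338051), with -1.21 (SE 0.16, adjusted p = 0.000581) in TCP minus UNM. Neither step alone reached the minimum difference for either gene, except that the fall of ZIP7 in TCP relative to BCP passed it without BCP replicate 2. The fall of ZIP7 in TCP relative to UNM was not called after quantile normalisation of the arrays again, nor after centring on the 75th percentile (-0.85).

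ZIP4 and the root iron importer gene IRT1 passed the test in TCP without an array above background at any stage. ZIP4 had 3.96 and 3.90 in UNM, 3.25 and 3.12 in BCP, and 4.82 and 5.25 in TCP (gene 4344937), and IRT1 had 3.89 and 3.90 in UNM, 4.32 and 3.98 in BCP, and 5.53 and 4.79 in TCP (gene 4333669). Both were higher on each TCP array than on every earlier one, but no fold is given, since all signals lay at background. The IRT1 call in TCP relative to BCP was lost without BCP replicate 2 (0.84) or TCP replicate 1 (0.64), its call relative to UNM without TCP replicate 1 (0.90), and the ZIP4 call relative to UNM without TCP replicate 2 (0.89). IRT2 and ZIP3, also at background apart from 1 TCP array of ZIP3, came past the minimum with arrays left out: IRT2 at 1.03 over BCP without BCP replicate 2, at 1.08 over BCP and 1.11 over UNM without TCP replicate 2 and at 1.22 over UNM without UNM replicate 2, and ZIP3 at 1.02 over UNM without TCP replicate 2. With control-based scaling neither ZIP4 nor IRT1 was called higher in TCP, and IRT1 differed by -0.22 in both comparisons.

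**Figure D3:**
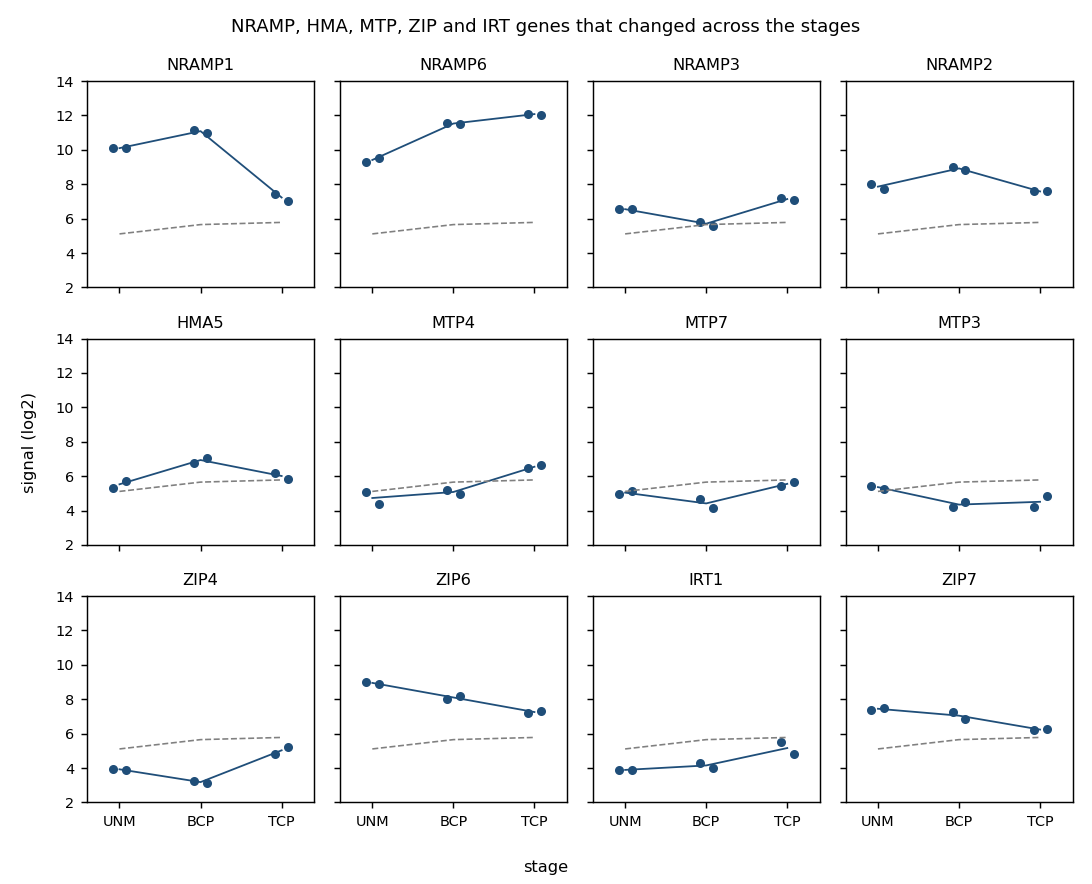
Log2 signal of the 12 NRAMP, HMA, MTP, ZIP and IRT genes that changed, at UNM, BCP and TCP; points are arrays (2 per stage), lines join stage means and the dashed grey line is the background level. NRAMP1 drops between BCP and TCP, NRAMP6 goes up mainly between UNM and BCP, ZIP6 and ZIP7 decline, and ZIP4 and IRT1 stay under the background line throughout.

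Among phosphate transporters, 3 of 9 (33.3%, against 25.1% of all genes) fell in BCP relative to UNM and none rose (against 17.1%). PHT1-7 (gene 4331542) had signals of 10.38 and 10.24 in UNM, 10.20 and 10.33 in BCP, and 3.53 and 3.55 in TCP. UNM and BCP overlapped and TCP lay at background, at least 22.4-fold lower than BCP (log2 difference -6.72, SE 0.13, adjusted p = 4.29e-07). Another probe set of the same gene gave no call, with signals between 3.52 and 4.76 on the 6 arrays, all below background. Which of the 2 probe sets follows the transcript was not tested.

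PHT1-12, PHT1-1 and PHT1-2 lie next to each other in the gene table, with no gene between them. PHT1-12 and PHT1-1 fell in BCP relative to UNM, and PHT1-2 rose in TCP. PHT1-12 (gene 4331634) had 8.34 and 8.51 in UNM, 4.25 and 4.17 in BCP, and 4.13 and 4.10 in TCP, above background in UNM alone. It was at least 6.81-fold lower in BCP than in UNM (log2 difference -4.22, SE 0.13, adjusted p = 7.28e-07). PHT1-1 (gene 4331635) had 6.94 and 7.14 in UNM, 4.58 and 5.33 in BCP, and 5.75 and 5.74 in TCP, and fell by 2.09 (SE 0.24, adjusted p = 0.000382) in BCP relative to UNM, at least 2.61-fold lower. PHT1-2 (gene 4331637), a low-affinity carrier that moves phosphate within the plant, had 4.40 and 4.42 in UNM, 4.53 and 4.88 in BCP, and 6.20 and 6.58 in TCP. It was above background in TCP alone, at least 1.67-fold higher than in BCP (log2 difference 1.69, SE 0.18, adjusted p = 0.000309). So the outer genes of the row had opposite courses, with UNM the high stage of one and TCP that of the other.

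The remaining PHT genes gave weak signals. PHT1-4, measured by a probe set shared with other transcripts, was just above background in UNM at 5.58 and 5.52 and at background later, with -1.76 (SE 0.16, adjusted p = 9.45e-05) in BCP minus UNM. PHT1-11, the importer that rice makes in roots with mycorrhiza, and PHT1-6 were above background on no array. PHT1-3 was above background on both arrays of BCP and TCP, with stage means of 5.40, 5.75 and 6.18 in UNM, BCP and TCP, and PHT1-8, a high-affinity importer, on 1 UNM array. Both PHT1-3 and PHT1-8 were also measured by shared probe sets. Leaving out UNM replicate 2 brought PHT1-3 (1.05) and PHT1-8 (-1.17) past the minimum in TCP relative to UNM and PHT1-8 (-1.10) in BCP relative to UNM, and without BCP replicate 2 PHT1-1 rose by 1.17 in TCP relative to BCP. The other probe set of PHT1-1 gave -0.55 in BCP minus UNM and -0.37 in TCP minus UNM, with no call. Centring on the 75th percentile ended the falls of PHT1-1 and PHT1-4 in TCP relative to UNM, and control-based scaling ended the rise of PHT1-2 in TCP.

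AMT1-1 was the ammonium transporter with the widest change. It (gene 4336365) had signals of 11.14 and 11.04 in UNM, 6.22 and 5.99 in BCP, and 5.94 and 5.64 in TCP, and fell by 4.99 (SE 0.16, adjusted p = 8.19e-07) in BCP relative to UNM, which is 31.7-fold lower. Both BCP arrays and 1 TCP array were still above background, and TCP minus BCP was -0.31 (SE 0.16). AMT3-1 (gene 4324937) went the other way, with 5.81 and 5.95 in UNM, 7.87 and 7.29 in BCP, and 7.53 and 7.36 in TCP, and rose by 1.70 (SE 0.21, adjusted p = 0.00049) in BCP relative to UNM. AMT3-2 (gene 4334717), on a shared probe set, had 6.24 and 6.06 in UNM, 5.13 and 4.64 in BCP, and 5.55 and 5.86 in TCP, and fell by 1.27 (SE 0.20, adjusted p = 0.00201) in BCP relative to UNM, at least 1.41-fold lower. Its TCP minus BCP difference was 0.82, under the minimum, but 1.07 without BCP replicate 1.

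The other 5 AMT genes, among them AMT2-1, AMT2-2 and AMT2-3, were above background on no array. The other probe sets of AMT1-1 and AMT3-1 gave no call: that of AMT1-1 differed by -0.39 and that of AMT3-1 by -0.14 in BCP minus UNM. With control-based scaling AMT3-1 still rose in BCP but was not called higher in TCP than in UNM.

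NRT2.3, a high-affinity nitrate carrier, was detected in UNM alone. It (gene 4324249) had signals of 6.09 and 6.35 in UNM, 4.04 and 4.21 in BCP, and 4.39 and 3.83 in TCP, on a shared probe set, and fell by 2.09 (SE 0.21, adjusted p = 0.000186) in BCP relative to UNM, at least 1.48-fold lower. NRT2.2, also on a shared probe set, was above background on no array, and nor was NAR2.2, of the partner proteins that NRT2 carriers need. The partner gene NAR2.1 has no probe set of its own and was not measured. The falls of AMT1-1, PHT1-12, PHT1-1, PHT1-4, AMT3-2 and NRT2.3 took place over the step at which 8 of the 12 anther wall markers fell. The part of anther tissue in those transporter signals was not tested.

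**Figure D4:**
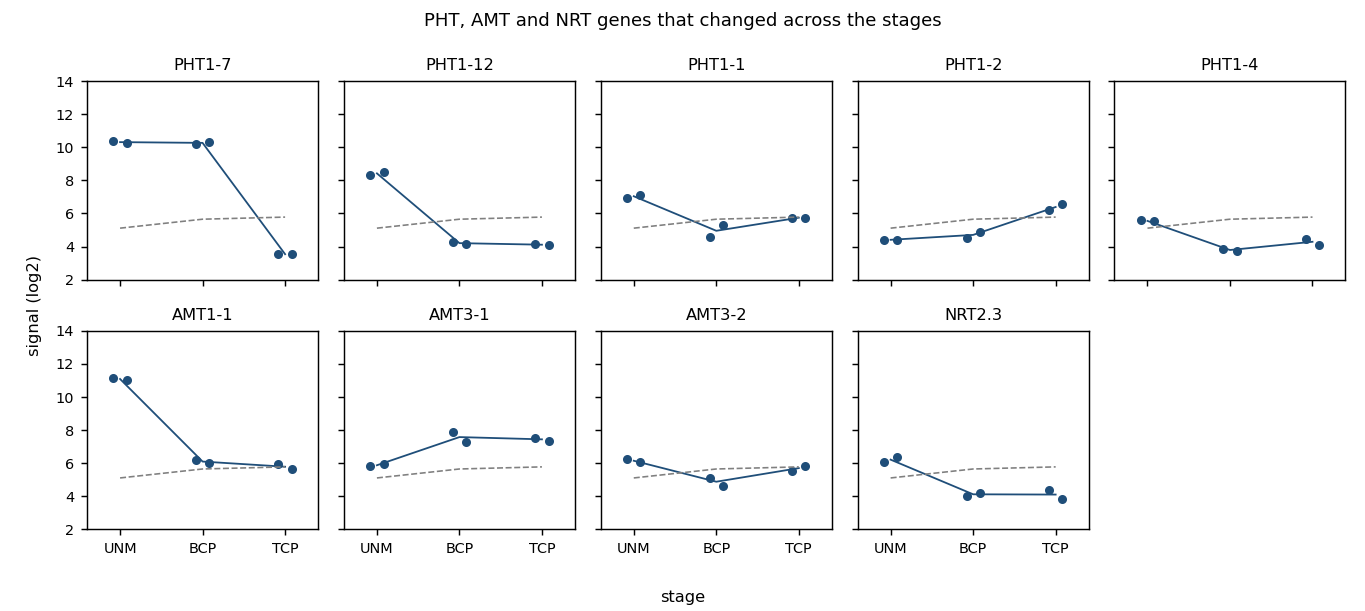
Log2 signal of the 9 PHT, AMT and NRT genes that changed, at UNM, BCP and TCP; points are arrays (2 per stage), lines join stage means and the dashed grey line is the background level. PHT1-7 is high in UNM and BCP and at background in TCP, PHT1-12 and AMT1-1 are high in UNM alone, PHT1-2 is highest in TCP, and AMT3-1 is higher in BCP and TCP than in UNM.

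The other measured genes of 1 family that lie beside each other in the gene table, with at most 2 genes between them, were set side by side. YSL7 rose at both steps, while its neighbour YSL8 rose in TCP alone, by 1.38 relative to BCP. YSL6 fell at both steps and its neighbour YSL5 did not change. In the row of YSL13, YSL12 and YSL11 only YSL13 was above background, in BCP. YSL16 peaked in BCP, and YSL9 beside it did not change. NRAMP1 fell in TCP, and NRAMP5, with 2 genes between them, did not change. IRT2 and IRT1, with 1 gene between them, were both highest in TCP with no array above background, and their TCP minus BCP differences were 0.96 for IRT2, under the minimum, and 1.01 for IRT1. Neither gene changed in the pair of PHT1-3 and PHT1-8, nor in that of AMT2-3 and AMT2-2. In TCP minus UNM PHT1-3, PHT1-8 and AMT2-3 passed the p threshold but not the minimum difference.

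Genes that act beside the carriers were read from 4 lists chosen by gene name. Each was read from 1 probe set, and PHR2, SPX4, GDH2 and GLU, among others, have further probe sets that were not compared. Of 10 genes of phosphate sensing and export 3 rose and none fell in BCP relative to UNM (30.0% and 0.0%, against 17.1% and 25.1% of all genes), and 3 rose and 1 fell in TCP relative to UNM (beside 14.4% and 37.7% of all genes). PHR2, the regulator that switches on phosphate starvation genes, had 6.35 and 6.63 in UNM, 8.33 and 8.32 in BCP, and 9.07 and 9.17 in TCP, and rose by 1.83 (SE 0.14, adjusted p = 4.67e-05) in BCP relative to UNM and by 2.63 (SE 0.14, adjusted p = 4.23e-06) in TCP relative to UNM. SPX2, of the family of phosphate-sensing proteins that hold PHR2 back, had 7.79 and 7.88 in UNM, 9.09 and 9.02 in BCP, and 9.98 and 10.13 in TCP, a rise of 2.22 (SE 0.13, adjusted p = 5.97e-06) in TCP relative to UNM, and SPX1 fell by 1.24 (SE 0.17, adjusted p = 0.000692) in the same comparison. SPX4 rose by 1.60 in BCP, and SPX3 rose by 1.10 in TCP relative to BCP with no array above background. Neither PHO1-2 nor PHO1-3, of the phosphate exporters, was above background. The counts with control-based scaling were 2 rises and 1 fall in BCP relative to UNM, and 1 rise and 5 falls in TCP relative to UNM.

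Of 10 genes of nitrogen assimilation 1 rose and 4 fell in BCP relative to UNM (beside 17.1% and 25.1% of all genes), and 2 rose and 3 fell in TCP relative to BCP (20.0% and 30.0%, against 8.52% and 28.6%). GLN1-2, a cytosolic glutamine synthetase, which fixes ammonium, had 12.19 and 12.25 in UNM, 7.88 and 7.88 in BCP, and 6.01 and 6.41 in TCP, and fell by 4.33 (SE 0.16, adjusted p = 1.56e-06) in BCP relative to UNM. Of the glutamate dehydrogenases, GDH3 had 10.46 and 10.54 in UNM, 4.24 and 3.80 in BCP, and 3.81 and 4.33 in TCP, at background after UNM, and GDH2 had 7.84 and 7.90 in UNM, 7.81 and 8.07 in BCP, and 12.37 and 12.49 in TCP. GDH2 rose by 4.49 (SE 0.14, adjusted p = 1.07e-06) in TCP relative to BCP (22.4-fold higher). So GDH3 and GDH2, of like name, were high in samples from opposite ends of development. The falls of GLN1-2 and GDH3 took place over the step at which 8 of the 12 anther wall markers fell. The part of anther tissue in their signals was not tested. GLN1-1 fell by 1.41 in TCP relative to BCP, and GLU, a ferredoxin-dependent glutamate synthase, rose by 1.12 in BCP relative to UNM. Control-based scaling gave 0 rises and 4 falls in BCP relative to UNM, and 1 rise and 7 falls in TCP relative to BCP.

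Of 8 genes of iron chelation, storage and regulation 1 rose and 2 fell in BCP relative to UNM (12.5% and 25.0%, near the 17.1% and 25.1% of all genes), and 1 rose and 1 fell in TCP relative to BCP (12.5% each, against 8.52% and 28.6%). IDEF1, a regulator of the iron deficiency response, had 6.02 and 6.11 in UNM, 10.52 and 10.79 in BCP, and 8.91 and 8.98 in TCP, and rose by 4.59 (SE 0.14, adjusted p = 7.46e-07) in BCP relative to UNM. VIT1, which moves iron and zinc into the vacuole, had 10.34 and 10.53 in UNM, 4.99 and 5.27 in BCP, and 5.19 and 5.24 in TCP, and fell by 5.31 (SE 0.15, adjusted p = 5.62e-07) in BCP relative to UNM, at least 27.5-fold lower. The part of anther tissue in the VIT1 signal was not tested. NAS1, NAS2 and NAS3, the synthases of the nicotianamine that YSL proteins carry with metals, were above background on no array. NAAT1, which turns nicotianamine towards the mugineic acids, had 7.51 and 7.58 in UNM, 5.09 and 4.54 in BCP, and 6.77 and 6.35 in TCP, lowest in BCP, with a BCP minus UNM difference of -2.73. With control-based scaling there were 1 rise and 3 falls in BCP relative to UNM, and 0 rises and 6 falls in TCP relative to BCP.

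Of 8 further copper, cadmium and calcium carriers 2 rose and 2 fell in BCP relative to UNM (25.0% each, against 17.1% and 25.1% of all genes). In TCP relative to BCP 3 rose and 2 fell (37.5% and 25.0%, against 8.52% and 28.6%), and in TCP relative to UNM 3 rose and 3 fell (37.5% each, against 14.4% and 37.7%). COPT2, of the copper importers, had 4.90 and 4.59 in UNM, 6.83 and 6.66 in BCP, and 11.81 and 11.86 in TCP, and rose in both, by 2.00 (SE 0.15, adjusted p = 4.35e-05) in BCP relative to UNM and by 5.09 (SE 0.15, adjusted p = 9.37e-07) in TCP relative to BCP. COPT1 and COPT3, of the same family, fell, with TCP minus UNM differences of -2.42 and -2.41, and COPT7 rose in TCP relative to BCP by 2.49 (SE 0.14, adjusted p = 8.9e-06). COPT3 fell by 2.09 already in BCP relative to UNM, and the part of anther tissue in its signal was not tested. CAX2, of the proton-coupled calcium exchangers, had 4.89 and 5.04 in UNM, 7.84 and 7.85 in BCP, and 9.48 and 9.60 in TCP and rose at both steps, while CAX3 fell at both, with a TCP minus UNM difference of -3.43 (SE 0.18, adjusted p = 3.83e-06). Control-based scaling gave 2 rises and 2 falls in BCP relative to UNM, and 2 rises and 5 falls in each comparison of TCP.

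The scaling between arrays bears on every comparison with TCP. Bacterial transcripts added to each sample before hybridization are read by 21 control probe sets, which had mean log2 signals of 7.74 and 7.18 in UNM, 7.81 and 7.64 in BCP, and 9.0 and 8.91 in TCP. With control-based scaling the median difference of all tested probe sets was -0.20 in BCP minus UNM, -1.09 in TCP minus BCP and -1.30 in TCP minus UNM, against 0.06, 0.15 and 0.20 as deposited. Then 9 members rose and 14 fell in BCP relative to UNM, 1 rose and 35 fell in TCP relative to BCP, and 5 rose and 40 fell in TCP relative to UNM. With the median of all probe sets lowered too, and no share of all genes counted, these falls are not a trait of the members. The calls of a rise in TCP that remained were those of YSL1 relative to BCP and of YSL1, YSL4, YSL7, YSL18 and NRAMP6 relative to UNM. All 8 falls in TCP relative to BCP and all 12 relative to UNM remained, and in BCP relative to UNM 9 of 10 rises and all 9 falls did. Centring on the 75th percentile moved the split the other way, to 16 rises and 9 falls in TCP relative to UNM, with all 12 rises and 9 of 12 falls kept.

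**Figure D5:**
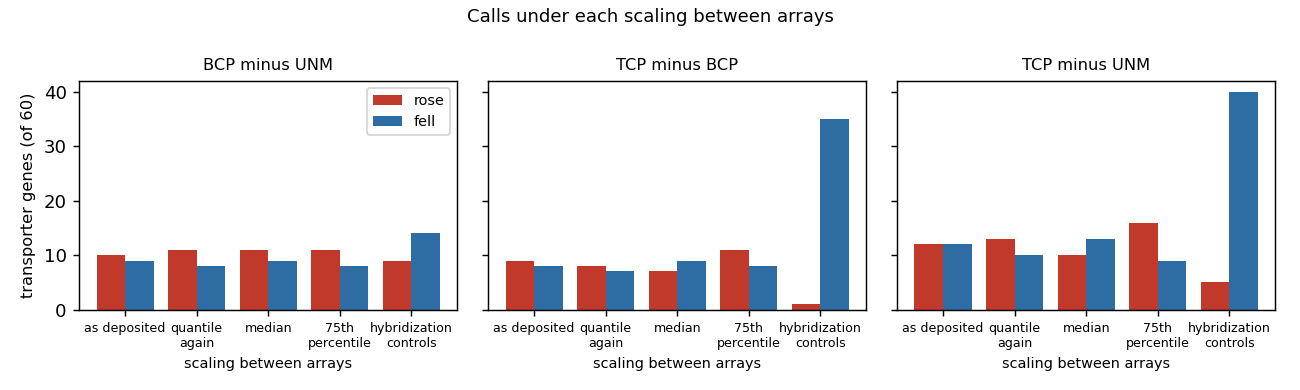
Number of the 60 genes that rose (red) and fell (blue) in each comparison, counted from 0, for 5 ways of scaling the arrays. The counts in BCP minus UNM stay between 8 and 14, and in both comparisons of TCP the scaling by hybridization controls gives 35 and 40 falls.

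The probe sets bear on single genes. For 11 members several probe sets were assigned, and 10 calls were made on such genes, those of AMT1-1, AMT3-1, MTP4, PHT1-1 and PHT1-7. In all 10 the other probe sets gave no call, and none gave an opposite one. For genes of the lists and for markers with several probe sets, such as GDH2 and RBCS, the others were not compared. In BCP minus UNM 13 of 19 calls had 1 stage with no array above background and 0 had both, in TCP minus BCP 8 and 3 of 17, and in TCP minus UNM 12 and 4 of 24. Of the 29 genes that did not change 18 were above background on no array, and HMA4, MTP1, MTP5 and YSL5 were on all 6. Members that passed the p threshold but not the minimum difference numbered 10 in BCP minus UNM, 11 in TCP minus BCP and 14 in TCP minus UNM.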

How the data were processed

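The male gametophyte was measured on 6 arrays, 2 per stage. Total RNA, 5 ug per sample, was turned into biotinylated cRNA per the labels' protocols. Each deposited value is a log2 signal of a probe set on an array, for which the submitters' processing notes name RMA. Its version, its probe definitions and the set of arrays that the authors normalised together are unknown, being not given in the sources used here.

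No further normalisation was applied. Of 57381 probe sets, 187 control and reporter probe sets were left out and 57194 were tested in 1 limma fit (3.58.1, in R 4.3.3) of all 6 arrays with stage as the factor, with residual degrees of freedom of 3 and a prior of 3.87. The tests are two-sided with Benjamini-Hochberg adjustment over these probe sets, and the procedure was tested on simulated data. Comparisons that share a stage share its arrays. The median standard error was 0.156. A gene was represented by its single-gene probe set with the highest mean over the arrays. Each stage mean rests on 2 arrays, and levels are given per array. Where all arrays of a stage were below background, the fold is a bound against, per array, the higher of the gene's signal and the background level of that array.

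Gene names come from the platform annotation and the RefSeq gene table of assembly ASM3414082v1, which was used for names and neighbours only. The members and the lists were chosen with earlier results of these data known, and so were the markers. In each family the array values are given for up to 4 members with the widest range of stage means among those that changed and for the member with the highest mean, and other members named in full were added after their values were seen. Names that matched a list but belong to other proteins were left out.

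The alternatives were 4 other scalings, leaving out dim or shared probe sets, other choices of probe set, moderation with a trend or robustly, a minimum difference of 0 or 2, the replicate as a block, a fit of the compared stages alone, and the omission of each array.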

Additional observations from a re-analysis of the deposited data

How the results depend on the processing

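The precision is limited by 2 arrays per stage and, for members near background, by signal: 20 of the 60 genes had no array above it. The counts of members that rose, fell or changed were within 1.5 times those reported under quantile normalisation again, centring on the median, leaving out dim or shared probe sets, other choices of probe set, an intensity trend, a robust prior and a fit of only the stages compared. Leaving out each array in turn gave 9 to 11 rises and 8 to 10 falls in BCP minus UNM, 8 to 10 and 8 to 9 in TCP minus BCP, 11 to 13 and 12 to 13 in TCP minus UNM, and 30 to 33 changed genes. With a minimum difference of 2, 6 rose and 5 fell in BCP minus UNM, 1 and 5 in TCP minus BCP, 5 and 6 in TCP minus UNM, and 15 changed. With no minimum 18 fell in BCP minus UNM, 15 rose and 13 fell in TCP minus BCP, and 20 rose in TCP minus UNM.

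Arrays of the same replicate number showed no shared shift: the deviations of the first replicates from their stage means correlated at -0.05 between UNM and BCP, 0.01 between BCP and TCP and -0.07 between UNM and TCP over probe sets. Whether the replicates were collected as pairs cannot be told from this. With the replicate block the counts were 10 rises and 9 falls in BCP minus UNM, 9 and 8 in TCP minus BCP, 12 and 12 in TCP minus UNM, and 31 changed genes, as without it, and it changed no call of a member.

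Quantile normalisation again ended the calls of MTP3 in BCP minus UNM, of IRT1 and NRAMP2 in TCP minus BCP, and of YSL10, ZIP4, PHT1-1 and ZIP7 in TCP minus UNM. Centring on the median ended those of MTP7 and IRT1 in TCP minus BCP and of YSL10 and ZIP4 in TCP minus UNM. Centring on the 75th percentile ended those of MTP3 in BCP minus UNM and of PHT1-1, PHT1-4 and ZIP7 in TCP minus UNM, and gave 16 rises and 9 falls in TCP minus UNM.

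Scaling by the hybridization controls gave 14 falls in BCP minus UNM, 1 rise and 35 falls in TCP minus BCP, 5 rises and 40 falls in TCP minus UNM, and 49 changed genes. Among differences called under this scaling or as deposited, the sign turned from plus to minus for the TCP minus BCP difference of AMT3-3 (-1.22), HMA4 (-1.19), MTP3 (-1.07), MTP7 (-0.092), YSL14 (-1.19), YSL15 (-1.14), IRT1 (-0.22), ZIP8 (-1.04) and OsPHT3 (-1.06). Among the same kind it turned for the TCP minus UNM difference of HMA4 (-1.11), HMA5 (-1.01), NRAMP4 (-1.47), NRT2.2 (-1.42), PHT1-6 (-1.48), YSL9 (-1.47), YSL10 (-0.46), YSL11 (-1.17), YSL12 (-1.43), YSL13 (-1.19), IRT1 (-0.22), ZIP4 (-0.39), ZIP8 (-1.42) and OsPHT3 (-1.33). The higher signal of the controls in TCP lowers every TCP value under this scaling, and the cause of that higher signal was not tested.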
